A study of Saccharomyces cerevisiae with 4 samples.

Results

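The nuclear genes that encode subunits of the yeast respiratory chain and of the mitochondrial ATP synthase were examined in RNA from purified nuclear mRNPs and from the lysate they came from. The group was defined by gene identity and not by any measured value, although its members were chosen with earlier results of these data known. It holds 4 genes of complex II, 9 of complex III, 9 of complex IV, the cytochrome c gene CYC1 and 15 of the ATP synthase. All 38 are among the 6692 reading frames of the deposited count table. The cells were *Saccharomyces cerevisiae* BY4741, a haploid laboratory strain, grown in YPD, a glucose-rich medium. Lysate and eluate came from cells of 1 genotype, with the alleles hpr1-TS::hphNT1 and sub2-FLAG-3C-ProtA::kanMX4. In these cells Sub2, an RNA-dependent ATPase, carries FLAG and protein A, and Hpr1, a subunit of the THO complex, carries a Twin-Strep tag, both added at the genomic locus. There is no untagged strain among the 4 libraries, so that RNA held by the beads alone has no measured background. RNA was taken from the total lysate before the first capture (2 libraries) and from particles eluted with biotin after capture through Sub2 and then Hpr1 (2 libraries).

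The respiratory chain passes electrons from succinate and NADH to oxygen, and the ATP synthase uses the resulting proton gradient to make ATP. Complexes III and IV and the ATP synthase are mosaics: a few core subunits are encoded and made inside mitochondria, and the others, studied here, are transcribed in the nucleus, exported as mRNA and imported as protein. Complex II is wholly nuclear-encoded. Yeast lacks the proton-pumping complex I. On glucose, transcription of many of these genes is held low, and it rises with haem and oxygen through the Hap1 and Hap2/3/4/5 activators.

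Library totals ranged from 11448755 to 29903666 counts. Values are in CPM, counts scaled to a common library size after TMM adjustment, and enrichment in the eluate over the lysate was tested with edgeR's quasi-likelihood test, with Benjamini-Hochberg adjustment over the 6191 genes that passed its filter on low counts. A gene is called lower or higher at an adjusted p under 0.05. Fold changes are relative to each RNA pool. In such bulk samples, fewer cells that hold a transcript and less of it per cell cannot be told apart. Of 96 nuclear reading frames that lie wholly opposite other reading frames, 95 had 0 counts in all 4 libraries, among them HYP2, the gene of an abundant translation factor. Counts were thus not separated by strand, although the library kit keeps it, and reads shared by overlapping frames were left out. Sense and antisense transcripts can therefore not be told apart. Of the genes that BY4741 lacks, LEU2, MET17 and URA3 had 0 counts in each library, and HIS3, of which the strain keeps a part, had 344 to 1105. The 5 markers of its mating type were all present, the lowest being MFA1 with 135 to 739 counts. Of the opposite type, 2 markers were matched. STE3 had 12 to 29 counts per library, but it overlaps YKL177W, so that its counts are uncertain. SAG1 had 106 and 102 counts in the lysates and 3097 and 3719 in the eluates (7.55 and 139 CPM).

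Most of the 38 genes were depleted from the particles. All passed the filter on low counts. In the eluate 34 were lower, against 44.8% of all genes tested, and 3 were higher, against 44.2% of all genes tested. ATP14 did not pass. The 3 that rose were SDH1 of complex II and COR1 and QCR6 of complex III. The median log2 fold change of the 38 genes was -2.89, a 7.43-fold lower level in the eluate, beside -0.01 over all genes tested. Over 4-fold lower were 29 of the 38, against 18.1% of all genes. For 34 genes both eluates lay below both lysates (47.5% of all genes), for 3 both lay above (46.9% of all genes), and for ATP14 the fractions overlapped. Summed over the 38 genes, the share of all counts was 0.153% in eluate 1 and 0.152% in eluate 2 (95% exact binomial intervals 0.152% to 0.155% and 0.150% to 0.153%). It was 0.487% in lysate 1 and 0.523% in lysate 2 (0.483% to 0.490% and 0.519% to 0.527%). Without molecular identifiers reads are not independent molecules, so that the intervals hold counting error alone.

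**Figure D1:**
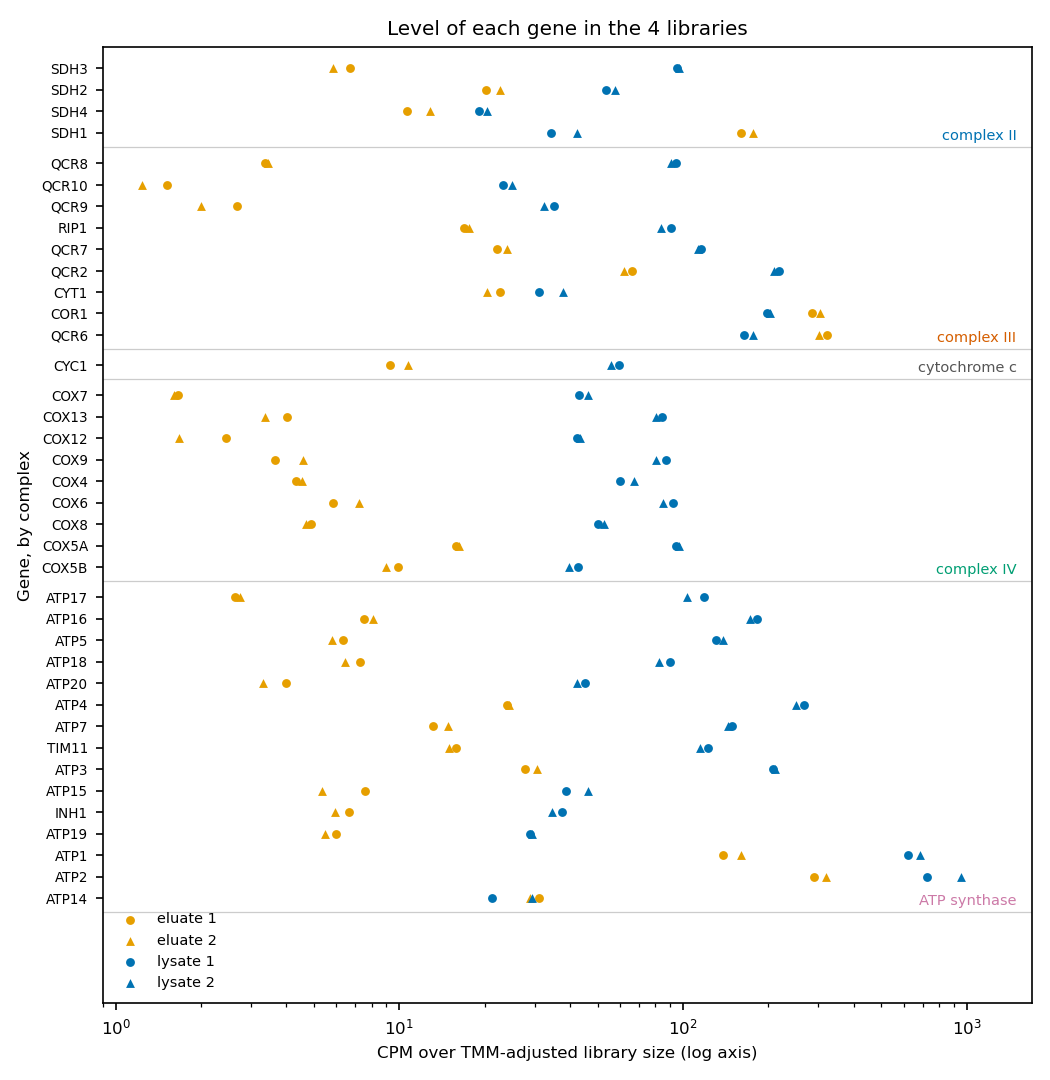
CPM of each of the 38 genes (log axis) in eluates 1 and 2 (orange) and lysates 1 and 2 (blue), with genes grouped by complex and ordered by fold change. The eluate points lie left of the lysate points for 34 genes, right of them for SDH1, COR1 and QCR6, and among them for ATP14.

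The 4 subunits of complex II, succinate dehydrogenase, went separate ways. SDH1 (YKL148C), the flavoprotein that oxidises succinate, lies on chromosome XI from 169207 to 171129 (sacCer3, minus strand, a coding region without an intron). It had 160.3 and 176 CPM in eluates 1 and 2 beside 34.2 and 42.4 CPM in lysates 1 and 2. It was the highest of all 38 genes, rising by 2.14 on the log2 scale (standard error 0.110, edgeR adjusted p = 5.49e-11). SDH2 (YLL041C), the iron-sulphur subunit that takes the electrons from Sdh1, had 20.2 and 22.6 CPM in the eluates beside 53.6 and 57.6 CPM in the lysates. Both eluates were below both lysates, and SDH2 fell by 1.37 (standard error 0.107, edgeR adjusted p = 8.10e-09). Per coding length, the level of SDH1 was 3.30 and 3.25 times that of SDH2 in the eluates and 0.266 and 0.307 times that of SDH2 in the lysates. The order of the catalytic pair was therefore opposite in the fractions. The membrane anchors, which hold the haem and the quinone site, were both lower but by different amounts. SDH3 had 6.70 and 5.84 CPM in the eluates beside 95.6 and 96.8 CPM in the lysates, a log2 fold change of -3.94 (standard error 0.117). SDH4 had 10.6 and 12.8 CPM in the eluates beside 19.1 and 20.3 CPM in the lysates, and fell by 0.74 (standard error 0.138). The level of SDH3 per coding length was 4.58 and 4.35 times that of SDH4 in the lysates and 0.577 and 0.417 times that of SDH4 in the eluates, again a change of order.

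Of the 9 nuclear genes of complex III, the cytochrome bc1 complex, 7 were lower and 2 higher. The core proteins COR1 and QCR2, which have no redox group, moved in opposite directions. COR1 (YBL045C), on chromosome II from 134143 to 135516, had 286 and 305 CPM in the eluates beside 198 and 204 CPM in the lysates. The difference is small beside the others but larger than the spread between replicates, with a log2 fold change of 0.56 (standard error 0.0945, edgeR adjusted p = 5.41e-05). Tested against a 1.5-fold change, COR1 did not pass (edgeR adjusted p = 0.435), nor did SDH4 and CYT1 (0.0622 and 0.120). QCR2 had 66.2 and 61.8 CPM in the eluates beside 218 and 209 CPM in the lysates, and fell by 1.74. The redox subunits were both lower. CYT1, cytochrome c1, had 22.6 and 20.4 CPM in the eluates beside 31.2 and 37.7 CPM in the lysates, and RIP1, the Rieske iron-sulphur protein, fell by 2.34 (standard error 0.103). Of the 5 small subunits, QCR6 (YFR033C) stood apart. It encodes the acidic subunit that lies near the docking site of cytochrome c, and occupies chromosome VI from 224326 to 224769. QCR6 had 323 and 303 CPM in the eluates beside 164 and 176 CPM in the lysates, and rose by 0.88 (standard error 0.0964, edgeR adjusted p = 4.79e-07). The other small subunits, QCR7 to QCR10, fell, with log2 fold changes from -4.77 to -2.31. The lowest was QCR8, a partner of cytochrome b, with 3.37 and 3.43 CPM in the eluates beside 94.7 and 90.7 CPM in the lysates. QCR9 and QCR10 hold introns of 213 and 63 bases in their coding regions. QCR9 had 58 and 55 counts in the eluates beside 546 and 398 in the lysates, and QCR10 had 33 and 34 against 363 and 308. Their log2 fold changes were -3.86 and -4.13 (standard errors 0.163 and 0.178), between those of QCR8 and QCR7, which have no intron.

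Cytochrome c carries electrons between complexes III and IV. CYC1, its main isoform in aerobic cells, had 9.28 and 10.7 CPM in the eluates beside 59.3 and 55.6 CPM in the lysates, and fell by 2.52 (standard error 0.118). The minor isoform gene CYC7, which is not one of the 38, had 5.86 ± 0.277 CPM in the eluates beside 4.57 ± 0.2498 CPM in the lysates (SD, n = 2). Its log2 fold change of 0.35 did not pass (standard error 0.184, edgeR adjusted p = 0.0860). Per coding length, the level of CYC7 was 0.629 and 0.510 times that of CYC1 in the eluates and 0.0772 and 0.0763 times that of CYC1 in the lysates, so that the isoforms stood closer to each other in the particles.

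All 9 nuclear genes of complex IV, cytochrome c oxidase, were lower, each over 4-fold, with a median of -3.84 and a range from -4.77 to -2.13. COX7 (YMR256C), a small transmembrane subunit on chromosome XIII from 778945 to 779127, was the lowest. It had 1.66 and 1.61 CPM in the eluates beside 42.8 and 46.4 CPM in the lysates, a log2 fold change of -4.77 (standard error 0.154, edgeR adjusted p = 3.16e-13). COX13, COX12 and COX9 followed, with values from -4.48 to -4.34, and then COX4, COX6 and COX8, with -3.84, -3.76 and -3.43. COX13 and COX12, COX12 and COX9, and COX4 and COX6 each differed by less than 1 standard error, so that their order is not resolved. The mildest were the alternative isoforms of subunit 5. COX5A, which is used in oxygen, had 15.8 and 16.2 CPM in the eluates beside 94.3 and 97.0 CPM in the lysates, and fell by 2.57 (standard error 0.100). COX5B, used when oxygen is scarce, has an intron of 88 bases in its coding region on chromosome IX. It had 9.88 and 8.94 CPM in the eluates beside 42.6 and 39.7 CPM in the lysates, and fell by 2.13 (standard error 0.122, edgeR adjusted p = 1.82e-10). Per coding length, the level of COX5B was 0.632 and 0.558 times that of COX5A in the eluates and 0.457 and 0.415 times that of COX5A in the lysates. COX5A was thus the more abundant isoform in each library, and the ratio was higher in both eluates than in both lysates. The isoforms are related in sequence, and the sources used here do not state how reads that fit several places were counted.

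Of 15 ATP synthase genes, 14 were lower and 13 over 4-fold lower, with a median of -2.94. The F1 sector, which makes ATP, held the most abundant of them. ATP2, the catalytic beta subunit, had 290.2 and 319.9 CPM in the eluates beside 727 and 954 CPM in the lysates. It fell by 1.46 (standard error 0.130), less than any other ATP synthase gene called. ATP1, the alpha subunit, had 138 and 159.9 CPM in the eluates beside 622 and 684 CPM in the lysates, and fell by 2.13. The other F1 genes fell further: the log2 fold change was -2.73 for ATP15 (epsilon), -2.84 for ATP3 (gamma) and -4.51 for ATP16 (delta). ATP16 had 7.48 and 8.07 CPM in the eluates beside 182 and 173 CPM in the lysates. Among the genes of the peripheral stalk, which keeps F1 from turning, ATP5, ATP4 and ATP7 fell, with log2 fold changes of -4.48, -3.42 and -3.39, but ATP14 (YLR295C), of subunit h, had 31.0 and 28.9 CPM in the eluates beside 21.2 and 29.3 CPM in the lysates. Its log2 fold change was 0.25 (standard error 0.138, edgeR adjusted p = 0.0954), and it was 0.03 without lysate 1 and 0.49 without lysate 2, so that its size depended on which lysate was used. ATP14, on chromosome XII from 721999 to 722373, was also the least abundant ATP synthase gene per coding length in both lysates. The small membrane subunits that hold Fo dimers together or bind beside subunit a were all lower. ATP17 (YDR377W), of subunit f, on chromosome IV from 1228611 to 1228916, was the lowest of all 38 genes. It had 2.63 and 2.74 CPM in the eluates beside 119 and 104 CPM in the lysates, a 41.3-fold lower level (log2 fold change -5.37, standard error 0.134, edgeR adjusted p = 3.30e-14). Only 1.21% of all genes tested had a lower fold change. ATP18, ATP20, TIM11 and ATP19 had log2 fold changes of -3.66, -3.60, -2.94 and -2.34. INH1, the inhibitor that stops ATP hydrolysis, fell by 2.52.

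**Figure D2:**
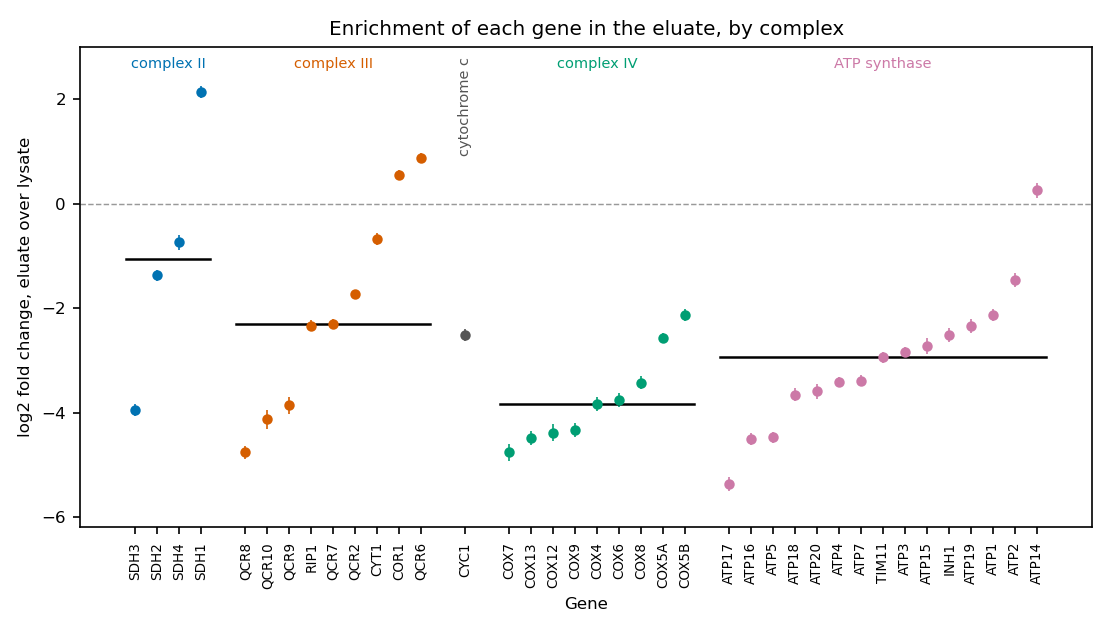
log2 fold change of each gene, eluate over lysate, with its standard error, ordered within each complex, and the median of each complex with more than 1 gene as a black line. The medians run from -1.06 for complex II to -3.84 for complex IV.

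The complexes differed in how far their mRNAs were depleted. Complex II had the mildest median, -1.06, followed by complex III with -2.31, the ATP synthase with -2.94 and complex IV with -3.84. Their median coding lengths differed too, with 699, 444, 375 and 390 bases in that order. When each eluate was set against each lysate, the difference between complexes III and IV lay between 1.46 and 1.65 in the 4 pairings. That between complex IV and the ATP synthase lay between -1.03 and -0.70, and that between complex III and the ATP synthase between 0.56 and 0.88. The order of the medians was the same in all 4 pairings. The genes of a complex are not replicates, however, and their ranges overlapped widely. By summed counts, complex IV took 0.00507% and 0.00484% of the eluates and 0.0628% and 0.0636% of the lysates, a mean share 12.8-fold lower in the eluates. The mean share of the ATP synthase was 5.39-fold lower, of complex III 1.48-fold lower and of complex II 1.15-fold lower. Single abundant genes set the sums of the milder complexes. Without SDH1 the share of complex II was 4.93-fold lower, and without COR1 and QCR6 that of complex III was 5.11-fold lower, where these genes were left out after their values were seen. In the eluates, QCR6, ATP2, COR1, SDH1 and ATP1 together held 75.2% and 76.3% of the counts of the 38 genes. The 5 most abundant genes of the lysates, ATP2, ATP1, ATP4, ATP3 and QCR2, held 44.2% and 47.4%.

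Most subunit genes are short. Coding lengths of the 38 genes ran from 180 to 1923 bases with a median of 445.5, beside 1218 for all 5774 nuclear protein-coding genes tested. All 12 genes of up to 300 bases were lower, with a median of -3.76, where the 263 nuclear protein-coding genes of that length had a median of -2.33 and 69.2% were lower. Of 15 genes over 300 and up to 600 bases, 13 were lower, with a median of -3.39, beside -1.80 and 71.5% lower for 849 genes of that length. Of 11 genes over 600 bases, 9 were lower, with a median of -1.74, beside 0.26 and 39.3% lower for 4662 genes. In each class the median of the subunit genes was thus below that of all genes of the class. Lengths within the class over 600 bases are not alike. Its subunit genes reach 1923 bases and its nuclear protein-coding genes 14733. From a local regression of fold change on coding length over all nuclear protein-coding genes, the 38 genes had a median residual of -1.79, and 33 lay below the trend. By complex, the median residual was 0.13 for complex II, -1.09 for complex III, -1.91 for the ATP synthase and -2.25 for complex IV. Of the 4 genes of complex II, 2 lay below the trend. A residual below -2 was found for 17 of the 38 and for 11.2% of all 5774 genes.

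Longer subunit genes tended to be less depleted than shorter ones, least clearly in the ATP synthase. Across the 38 genes, the log2 fold change and log2 coding length had a Pearson's r of 0.57 and a Spearman's rho of 0.52, and across all 5774 nuclear protein-coding genes 0.52 and 0.55. These are descriptions across genes measured in the same 4 libraries. Within complex III (9 genes) Pearson's r was 0.72, within complex IV (9 genes) 0.61 and within the ATP synthase (15 genes) 0.17. ATP1 and ATP2, of 1638 and 1536 bases, had residuals of -2.55 and -1.74 from the trend, while SDH1 and COR1, of 1923 and 1374 bases, lay 1.36 and 0.52 above it. The shorter genes QCR6 and ATP14 lay 2.50 and 1.98 above the trend, and SDH4 lay 0.70 above it. ATP17 lay farthest below, with a residual of -3.58.

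**Figure D3:**
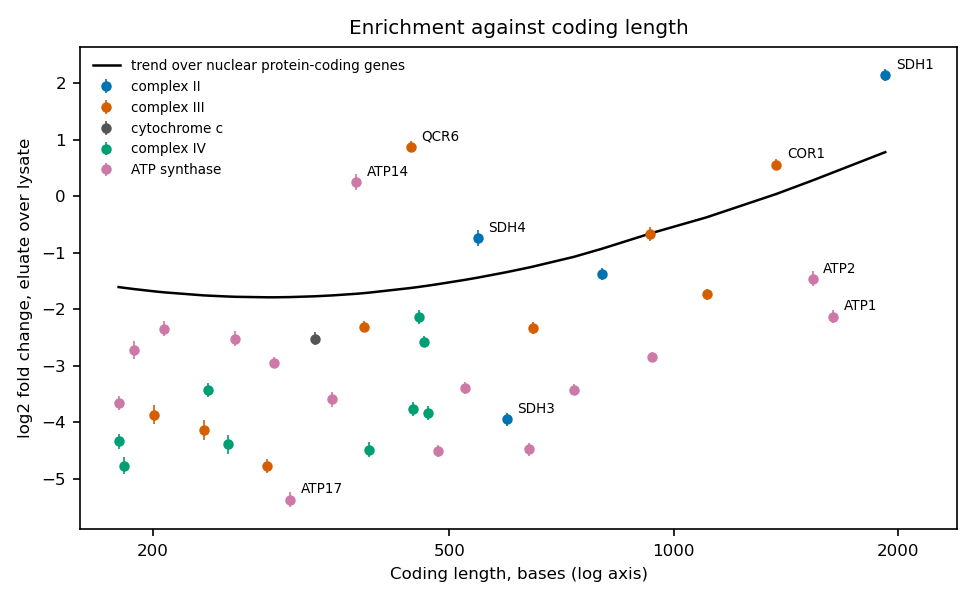
log2 fold change, eluate over lysate, with its standard error, against coding length (log axis) for the 38 genes, coloured by complex, and the trend over 5774 nuclear protein-coding genes (black line). Of the 38 genes, 33 lie below the line and SDH1, SDH4, COR1, QCR6 and ATP14 lie above it.

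The subunit genes were abundant in the lysates and not in the eluates. Per kb of coding length, their median level was 203 CPM in the lysates, where the median of nuclear protein-coding genes was 42.2 and 35 of 38 lay above it. In the eluates it was 25.5 CPM, beside 43.5, and 9 of 38 lay above. How far apart the levels of partner subunits lay changed in some complexes. For the 5 F1 genes, the highest level was 2.31 and 2.747 times the lowest in lysates 1 and 2 and 12.2 and 12.5 times the lowest in eluates 1 and 2. For complex III this ratio was 11.1 and 9.79 in the lysates and 112 and 129 in the eluates, from QCR10 to QCR6. For complex IV the ratio was 5.19 and 5.14 in the lysates and 3.77 and 5.28 in the eluates, and so not higher in both eluates. The SD of its log2 levels per coding length was 0.650 and 0.634 in the lysates and 0.692 and 0.820 in the eluates. The 2 measures thus differed for complex IV. For complex II the ratios of the fractions overlapped, with 8.99 and 7.36 in the lysates and 7.43 and 9.36 in the eluates. Over all 38 genes, the SD of log2 levels per coding length was 1.11 and 1.05 in the lysates and 1.45 and 1.51 in the eluates. Over all nuclear protein-coding genes with a count it was 2.23 and 2.21 in the lysates and 1.89 and 1.94 in the eluates. The subunit genes were therefore more unequal in the eluates, whereas genes in general were less so.

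**Figure D4:**
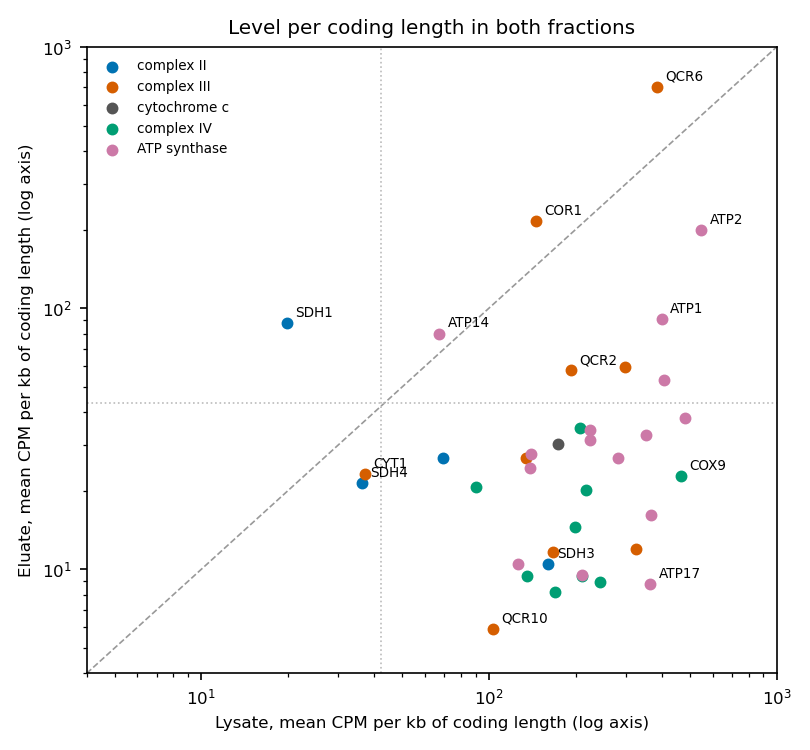
Mean CPM per kb of coding length in the eluates against that in the lysates (both log axes) for the 38 genes, coloured by complex, with equal levels as a dashed line and the medians of nuclear protein-coding genes as dotted lines. Most genes lie right of the lysate median and below the eluate median, and SDH1, COR1, QCR6 and ATP14 lie above the dashed line.

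Since counts were not separated by strand, neighbouring and overlapping transcripts bear on single values. ATP1 shares 251 of its 1638 bases with YBL100C on the opposite strand and ATP14 shares 32 of its 375 bases with YLR294C on its own strand, so that both values are uncertain. The other 36 genes share no base with another reading frame. For 9 of them the next upstream reading frame lies within 300 bases on the same strand. Frames as close that lie downstream are not among these 9, such as HAL5, 175 bases from QCR8 on the opposite strand. QCR6 lies 250 bases behind PHO4, the gene of a phosphate-responsive transcription factor, which had 475 CPM in the eluates beside 91.5 CPM in the lysates. In 5 of these 9 cases the upstream gene was higher in the eluate, against 44.2% of all genes tested. Of the 5 subunit genes behind them 4 were lower, as were 34 of all 38. SDH2 lies 279 bases behind VPS13, with a log2 fold change of 1.69, and ATP19 lies 225 bases behind AVO1, with 2.44. QCR7 behind APA2 and TIM11 behind PEP7 are the others. For SDH1 and COR1 the next frames lie more than 300 bases away. The part of neighbouring transcripts in these values was not tested.

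Other genes of respiration ran from far lower to higher values than the nuclear subunits. The count of each group stands beside 44.8% lower and 44.2% higher over all genes tested. The most abundant gene of a group, here and below, is the one with the highest mean CPM in the lysates. These CPM are not scaled to coding length, and per coding length other genes stood higher in several groups. The 7 mitochondrially encoded partner subunits (COX1, COX2, COX3, COB, ATP6, ATP8 and OLI1) were all lower, with a median of -7.67, or -7.30 with ATP8 at its bound. For ATP8 the lysates held 62 and 84 counts and each eluate 0, which made it at least 85.6-fold lower in the eluate with a floor of 3 counts over both eluates. OLI1, subunit c of the rotor and the most abundant of them, had a log2 fold change of -8.11, and the highest fitted value was -6.71, for COX2. COX1, COX2 and COB share sequence with other mitochondrial reading frames, so that their counts are uncertain. Every nuclear subunit gene lay above these values. Of 5 complex II assembly factors all were lower, from SDH6 with -3.83 to SDH5, which attaches the flavin to Sdh1, with -0.85. SDH8, the most abundant in the lysates, fell by 2.34. Of 12 complex III assembly and translation factors, 8 were lower and 4 higher, with a median of -1.47. They ran from MZM1 with -3.35 to CBP2, a splicing factor of the cytochrome b transcript, with 1.25, and FMP25, the most abundant in the lysates, rose by 0.84. Of 34 complex IV assembly and translation factors, 23 were lower and 9 higher, with a median of -0.99. CMC2 was the lowest with -3.77, and COX19, a small protein of copper delivery, was the highest with 4.43. COX19 has a coding length of 297 bases and had 2864 and 3203 counts in the eluates beside 81 and 79 in the lysates. The most abundant, COX15 of haem a synthesis, fell by 1.24. Of 16 ATP synthase assembly and translation factors, 8 were lower, 5 higher and 3 not past the threshold, with a median of -0.22. Their higher share was below the 44.2% over all genes tested. They ran from STF2 with -2.84 to NCA3 with 2.76. AEP1, a translation factor of the OLI1 mRNA and the most abundant in the lysates by CPM, did not pass, with 0.14 (edgeR adjusted p = 0.132). Per kb of coding length, STF2 stood higher in the lysates, with 285 CPM beside 48.9 CPM for AEP1.

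Of 15 dehydrogenases, carriers and other mitochondrial proteins, 6 were lower and 7 higher, with a median of 0.35. These counts were near the shares over all genes tested. POR1, the outer membrane channel, fell by 2.43, and GUT2, which feeds electrons from glycerol 3-phosphate, rose by 2.43. NDE1, an external NADH dehydrogenase and the most abundant, fell by 0.90, while NDI1, the internal one, rose by 1.49. Of 8 genes of HAP and haem-responsive regulation, 7 were higher and 1 lower, against 44.2% and 44.8% of all genes tested, with a median of 2.26. They include HEM1, which encodes the first enzyme of haem synthesis and is no regulator, with 2.50. HAP1, the haem-responsive activator and the most abundant, had 77210 and 102056 counts in the eluates beside 2622 and 1951 in the lysates, a log2 fold change of 4.48 (standard error 0.142). In S288C-derived strains such as BY4741 the end of HAP1 is interrupted by a Ty element. HAP4, the glucose-repressed activating subunit, rose by 2.01, and ROX1, the repressor of hypoxic genes, was the highest with 5.27. HAP3, a DNA-binding subunit and the shortest of them with 435 bases, was the one that fell, by 0.31 (standard error 0.125, edgeR adjusted p = 0.0320). These groups differ in coding length, with medians of 1290 bases for the HAP and haem genes and 957 for the dehydrogenases. Their median residuals from the length trend were 2.08 and 0.88, beside -1.79 for the 38 subunit genes.

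**Figure D5:**
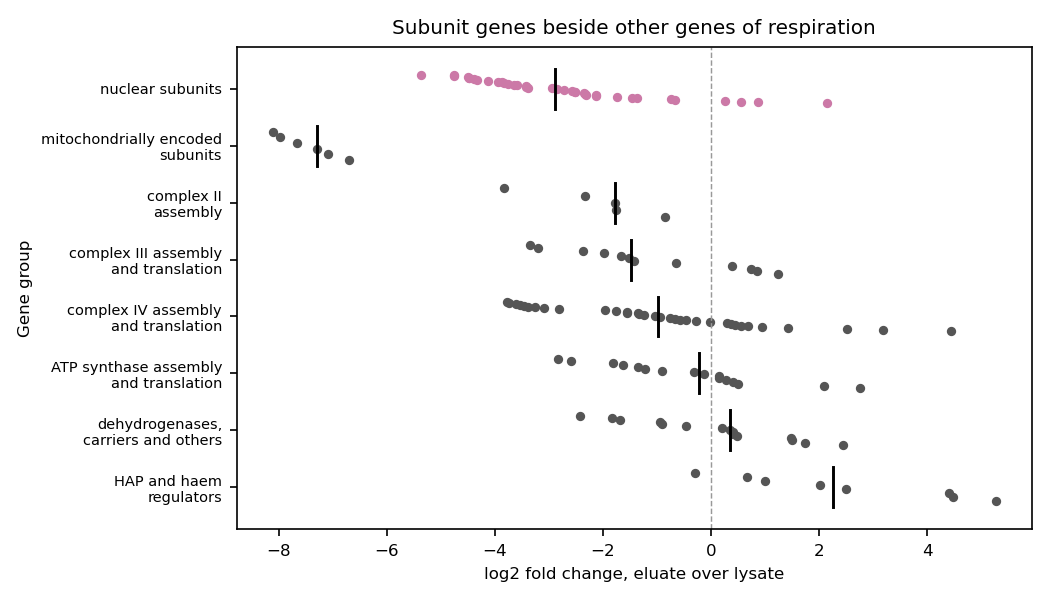
log2 fold change, eluate over lysate, of the 38 nuclear subunit genes (pink) and of other genes of respiration (grey), 1 point per gene tested, with each group's median as a black line. ATP8, with 0 eluate counts, has no point and enters its group's median at its bound. Medians run from -7.30 for mitochondrially encoded subunits through -2.89 for nuclear subunits to 2.26 for the HAP and haem genes.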

How the data were processed

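RNA-seq libraries from 2 biotin eluates and 2 lysates were used, grouped by their titles. They hold 22454265 and 29903666 counts (eluates 1 and 2) and 14793216 and 11448755 counts (lysates 1 and 2). Libraries had been depleted of ribosomal RNA. Raw counts per reading frame were deposited by the authors, who per the labels used STAR 2.7.9a, featureCounts of Subread 2.0.3 and the sacCer3 genome. How featureCounts treated strand and repeated matches is not stated in these sources. Coding length came from the same table. The authors' DESeq2 table of fold changes and p-values was not used. The study calls the replicates biological, and the labels do not say at which step they were separated. The p-values set the difference between the fractions against the spread between the 2 libraries of a fraction, estimated with information shared across genes.

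Counts were fitted in R 4.3.3 with edgeR 4.0.16 (filterByExpr, TMM, quasi-likelihood test, Benjamini-Hochberg adjustment over 6191 genes), tested on simulated data. The standard error is the log2 fold change divided by the root of the F statistic. The length trend was a loess of span 0.75. Summaries used Python 3.11.15, and 6008 identifiers were matched to RefSeq R64. Alternatives were other scalings and filters, limma 3.58.1, DESeq2 1.42.0, a test against 1.5-fold, a replicate term and leaving out each library. The members and lists were chosen with earlier results of these data known. Values per library were given for complex II, for genes higher or not past the threshold, for the highest and lowest gene of each complex, for COX5A, COX5B, CYC1 and genes with introns, and for some others chosen after their values were seen. Of each list the highest, the lowest and the most abundant gene in the lysates by CPM were named, and NDI1, HAP4 and CYC7 were added.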

Additional observations from a re-analysis of the deposited data

How the results depend on the processing

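Under 13 alternatives, with each fit's own p-values, 490 of 494 values of single genes kept their direction and their side of the threshold, and 34 of 38 genes did so throughout. Tested against a 1.5-fold change with edgeR's glmTreat, SDH4, COR1 and CYT1 no longer passed (adjusted p = 0.0622, 0.435 and 0.120). The log2 fold change of ATP14 was 0.03 without lysate replicate 1 and 0.49 without lysate replicate 2. Each fit without a library leaves 1 in that fraction, which is assumed to vary like the 2 of the other, so that calls gained there are not read as results. With library sizes alone the medians were -3.07 for the 38 genes, -1.24 for complex II, -2.49 for complex III, -4.02 for complex IV and -3.12 for the ATP synthase, where the median of all genes moved from -0.01 to -0.19. The median residual from the length trend was -1.69 with a loess span of 0.3 and -1.48 with a straight line. When each library was left out in turn, 34 genes were lower and 3 to 4 higher, the fourth being ATP14 in the fit without lysate replicate 2. The median ran from -2.95 to -2.88 for the 38 genes, from -1.19 to -0.93 for complex II, from -2.38 to -2.22 for complex III, from -3.95 to -3.78 for complex IV and from -3.00 to -2.90 for the ATP synthase. Eluates and lysates share replicate numbers. Deviations of same-numbered libraries had a correlation of -0.043 across genes, so that no shared deviation was seen. This value cannot tell whether same-numbered libraries came from the same preparation. With a replicate block 2769 genes were lower and 2730 higher, against 2772 and 2737 without it, and of the 38 genes 34 were lower and 3 higher, with a median of -2.89.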
